A study of Mus musculus with 8 samples.

Results

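The heat shock chaperones examined here are 10 mouse genes: the HSP70 genes Hspa1a, Hspa1b and Hspa8, their co-chaperones Dnajb1 and Hsph1, the HSP90 gene Hsp90aa1, the mitochondrial chaperonin genes Hspd1 and Hspe1, the small heat shock protein gene Hspb1, and Hsf1, the transcription factor that governs the heat shock response. Members were chosen by name, and each was read from every probe set that the platform annotation gives to that gene and no other. This gave 22 probe sets of 34945 with exactly 1 gene, covering 9 of the 10 genes. Hsf1 was not analysed here.

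Expression was measured on arrays in multipotent progenitors sorted out of marrow taken from C57BL6 females 8 to 10 weeks old, by the absence of lineage markers and CD150 and the presence of Sca-1, c-Kit and CD48. The mice were wild type or carried FLT3-ITD, an activating mutation of the growth factor receptor FLT3 (a duplicated stretch inside the gene) known from human acute myeloid leukaemia. The making of the allele and its copy number have no mention in the sources used here, and no further allele or treatment is named. Each genotype had 4 samples with 1 array each, labelled 1, 2, 3 and 1 (037), the last of which is called replicate 037; it may repeat replicate 1. Nothing in the labels ties samples to individual animals, so a p-value here reflects the scatter among these samples alone, part of which may be technical.

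Chaperones bind unfolded proteins and help them fold or keep them from aggregating. Hspa8 encodes the constitutive cytosolic HSP70, whereas Hspa1a and Hspa1b encode the inducible form, which cells make in large amounts after heat or other protein damage. In that response HSF1 binds heat shock elements, which are runs of inverted GAA units upstream of the chaperone genes. HSP90 is also known as a chaperone that keeps mutant tyrosine kinases, FLT3-ITD among them, folded.

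No member gene passed the test between genotypes, and the members differed in how far they varied between arrays of one genotype. Hspa1a and Hspa1b had some of the widest ranges over the 8 arrays of all genes tested. The brightest probe set of the constitutive Hspa8 had one of the narrowest, at the top of the scale where ranges are narrow, while another Hspa8 probe set spanned 1.85. Hspa1a read higher in FLT3-ITD by 1.90 ± 0.93 (log2 difference, SE), short of the threshold. Dnajb1 was the single member whose genotypes did not overlap, being 0.22 lower on the log2 scale in FLT3-ITD; over all genes tested 6.22% did not overlap, so 1 of 9 is no result about the members.

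**Figure D1:**
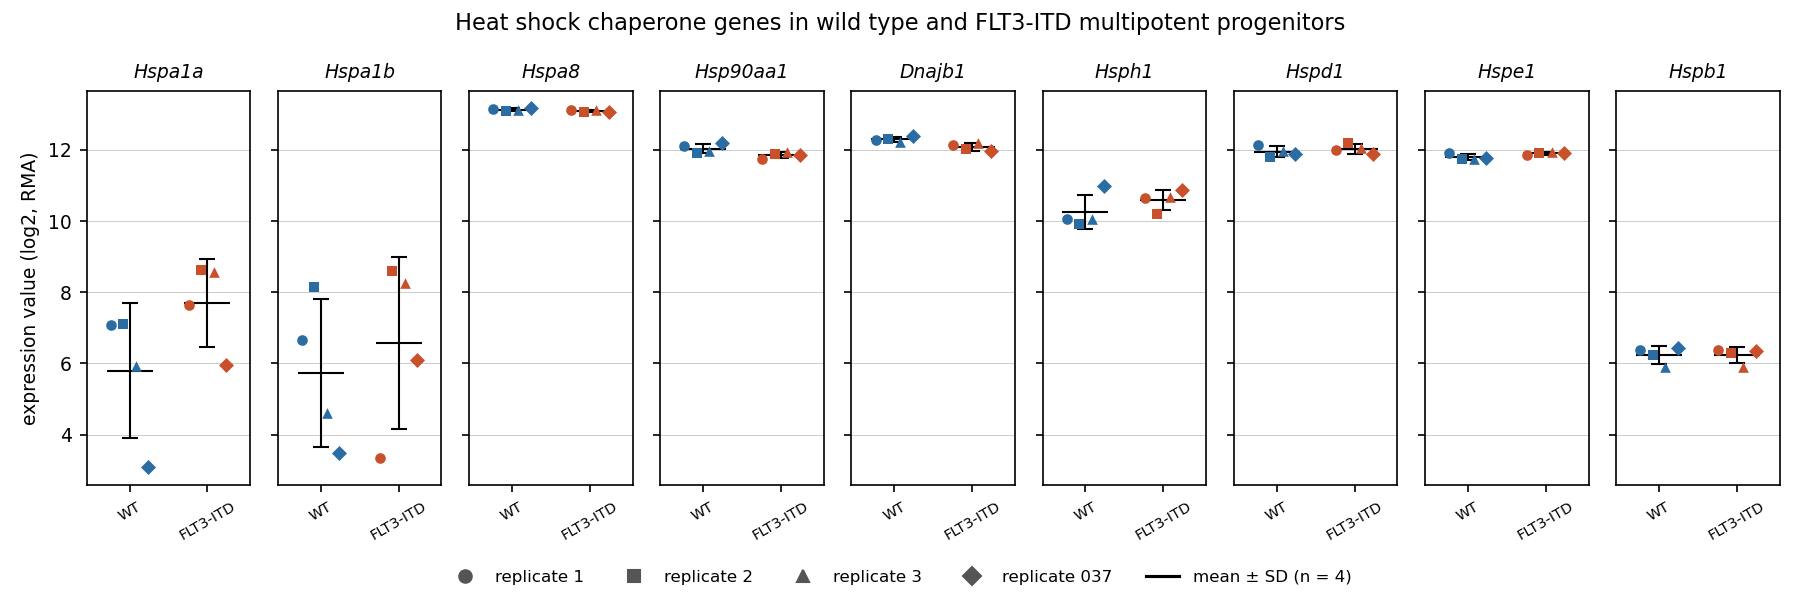
Expression value (log2, RMA) of the 9 measured heat shock chaperone genes on each array, read from the probe set with the highest mean, for wild type (blue) and FLT3-ITD (orange); symbols mark the replicate label and black bars the mean ± SD of 4 arrays. Hspa1a and Hspa1b spread over 5.53 and 5.26 log2 units, and Hspa8 over 0.11; levels in different panels come from different probes and do not rank the transcripts.

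Hspa1a and Hspa1b are adjacent genes on chromosome 17 with nearly the same coding sequence, and their upstream sequences are shown because their levels are the ones that moved most between arrays. Both are on the minus strand and are given 5′ to 3′ from RefSeq (GRCm38.p6), as the 250 bases before the annotated start. Capitals mark GAANNTTC, a pair of inverted GAA units of the heat shock element.

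Hspa1a, chr17:34972157-34972406: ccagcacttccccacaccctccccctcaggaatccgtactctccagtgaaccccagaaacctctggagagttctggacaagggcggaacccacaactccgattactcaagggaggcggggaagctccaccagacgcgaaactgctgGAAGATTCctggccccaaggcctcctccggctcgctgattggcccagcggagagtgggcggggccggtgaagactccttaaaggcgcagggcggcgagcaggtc

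Hspa1b, chr17:34959239-34959488: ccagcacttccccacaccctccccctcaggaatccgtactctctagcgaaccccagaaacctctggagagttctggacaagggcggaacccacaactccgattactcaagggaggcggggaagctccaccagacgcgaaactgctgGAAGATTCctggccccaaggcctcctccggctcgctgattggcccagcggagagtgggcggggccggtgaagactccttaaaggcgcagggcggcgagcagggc

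The upstream sequences of the pair were identical at 247 of 250 positions (98.8%). The substitutions from Hspa1a to Hspa1b were C44T, T47C and T249G, counted from 1 at the 5′ end of the window, and the capitals lie outside all 3. The match begins 104 bases before the annotated start in both genes.

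Of the 10 members, 7 had RefSeq windows, 10 in all, and 6 of these 7 genes held at least 1 match to GAANNTTC or TTCNNGAA within the 250 bases. Both motifs read the same on either strand, and matches may overlap. Over 32851 such windows of all genes, 12.8% held either motif, 6.69% held GAANNTTC, 7.17% held TTCNNGAA, and 1.46% held at least 2 matches. These shares are per window, whereas 6 of 7 counts genes, some with 2 windows, so they do not compare directly. The member windows are also not separate: those of Hspa1a and Hspa1b are nearly identical, and those of Hsph1 overlap. Hspd1, Hspe1 and Hspb1 had at least 2 in a window, although the other window of Hspd1 had none. Neither window of Dnajb1 had any, and 1 of them lies inside the annotated gene. The Hspd1 window with matches also lies inside its annotated gene. Both Hsph1 windows reach into the annotated Hsph1 gene, and the Hsph1 match lies inside it. Hspd1 and Hspe1 lie head to head on chromosome 1, and a window of each covers the same 3 overlapping matches, read from opposite strands. A match is a description of the letters only. The matches outside the HSP70 pair are given next as 30 bases, with the matched bases in capitals.

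Hsph1, chr5:149636351-149636380, minus strand: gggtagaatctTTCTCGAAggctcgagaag

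Hspe1, chr1:55088053-55088082, plus strand: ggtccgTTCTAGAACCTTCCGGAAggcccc

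Hspd1, chr1:55088053-55088082, minus strand: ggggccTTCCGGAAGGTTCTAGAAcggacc

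Hspb1, chr5:135887791-135887820, plus strand: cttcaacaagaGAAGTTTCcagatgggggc

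Hspb1, chr5:135887811-135887840, plus strand: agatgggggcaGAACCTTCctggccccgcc

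Genotypes were compared with limma, a linear model with moderated variances, on 1 probe set per gene, and a call needed a Benjamini-Hochberg adjusted p under 0.05 over the 10762 genes tested. None of the 9 member genes was called, where 0.604% of all genes tested were called (0.427% higher and 0.177% lower in FLT3-ITD). None had an unadjusted limma p under 0.05, against 9.58% of all genes. In a limma fit over all 34945 probe sets, none of the 22 member probe sets was called (0.157% of all were) and none had an unadjusted p under 0.05, against 8.03%. The zeros at the unadjusted threshold depended on the processing. They became 2 genes and 3 probe sets with trended, robust variances, and 2 genes and 4 probe sets without both replicates 037 (an alternative chosen after seeing the data). The shares of all genes and probe sets under those fits are not given here, so these counts cannot be set against a background. The smallest adjusted p among the members was 0.577, for Hspa1a, over genes and 0.631, for an Hsph1 probe set, over probe sets. A p that misses the threshold does not show equal levels, so the 95% interval of each difference is given with it.

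Of the 9 genes, 5 had a positive and 4 a negative difference, with a median of 0.08; over all genes tested 53.7% were positive and the median was 0.02. Of the 22 probe sets, 15 were positive and 7 negative, with a median of 0.06, against 53.6% positive and 0.02 over all probe sets. In bulk samples such as these, fewer cells of a type and less RNA per cell cannot be told apart.

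**Figure D2:**
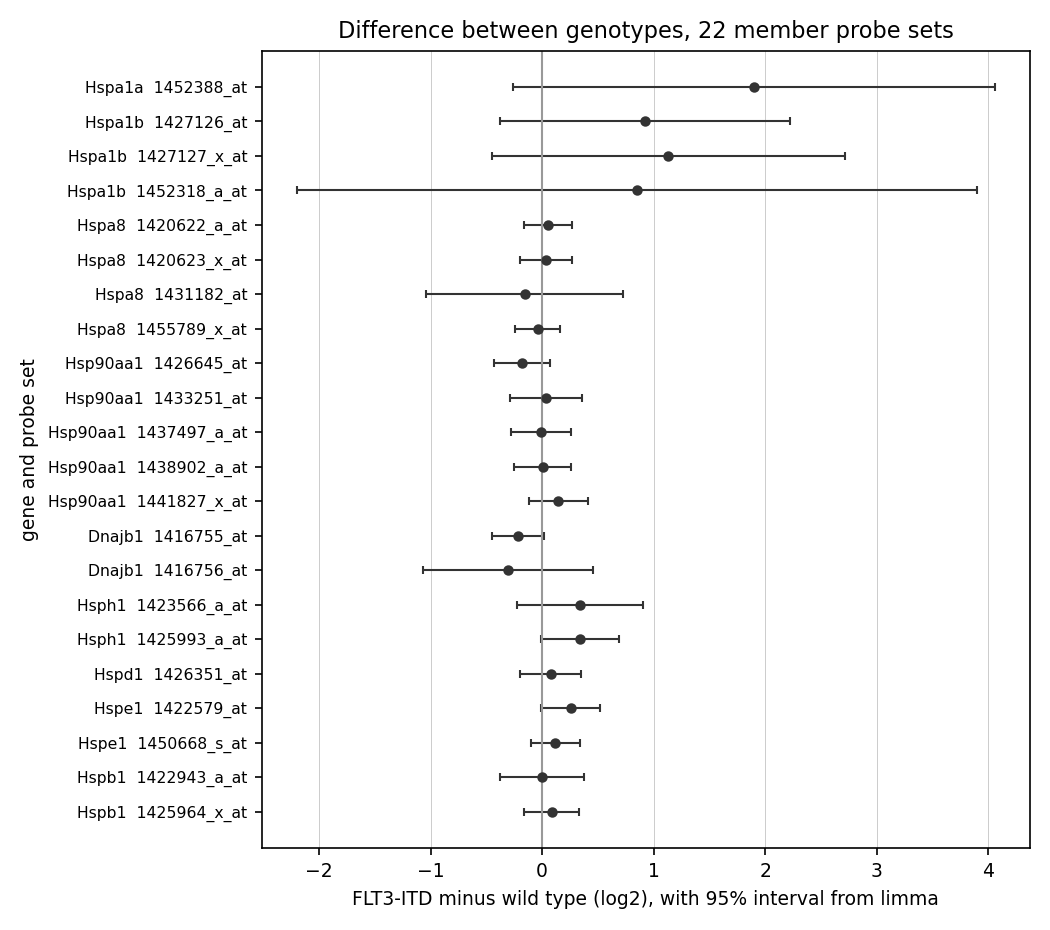
Difference between FLT3-ITD and wild type (log2, x axis) for each of the 22 member probe sets (y axis), with the 95% interval from the limma fit over all probe sets. Every interval includes 0, from that of Hspa8 probe set 1455789_x_at, from −0.25 to 0.16, to that of Hspa1a, from −0.26 to 4.06.

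Among the inducible HSP70 genes, Hspa1a was read by probe set 1452388_at. In wild type it read 7.09, 7.10 and 5.92 in replicates 1, 2 and 3 and 3.09 in replicate 037. In FLT3-ITD it read 7.64, 8.62, 8.58 and 5.95 in the same order. The highest 3 arrays were all FLT3-ITD, the lowest was wild type, and the genotypes overlapped because FLT3-ITD replicate 037 lay below wild type replicates 1 and 2.

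The Hspa1a mean was 5.80 ± 1.89 for wild type and 7.70 ± 1.25 for FLT3-ITD (log2, SD, n = 4 each), a difference of 1.90 with a 95% interval from −0.22 to 4.01 (limma adjusted p = 0.577). The 3 lowest values lay below the array medians of 5.98 to 6.05, and whether they were above background is not known, so no fold is given. A single array weighed heavily here: without wild type replicate 037 the difference was 0.99. Without both replicates 037 it was 1.58 (limma adjusted p = 0.325). Replicate 037 was the lowest array for Hspa1a in each genotype.

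Hspa1b was read by 3 probe sets. With probe set 1452318_a_at, wild type read 6.67, 8.14, 4.60 and 3.48 in replicates 1, 2, 3 and 037, and FLT3-ITD read 3.34, 8.60, 8.27 and 6.09. Both genotypes thus held high and low arrays, and the lowest of all was FLT3-ITD replicate 1. The means were 5.73 ± 2.09 and 6.57 ± 2.43 (log2, SD, n = 4 each), differing by 0.85 with a 95% interval from −2.13 to 3.83 (limma adjusted p = 0.883). Leaving out single samples moved this from 0.10, without wild type replicate 037, to 1.93, without FLT3-ITD replicate 1.

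The other Hspa1b probe sets were dimmer, above the array median on only 2 arrays each. Probe set 1427127_x_at read 7.21 and 7.08 in FLT3-ITD replicates 2 and 3, 5.43 in wild type replicate 2, and 4.25 to 4.54 on the remaining 5 arrays. Probe set 1427126_at read 6.17 and 6.13 in FLT3-ITD replicates 2 and 3, 4.70 in wild type replicate 2, and 3.82 to 3.98 elsewhere. All 3 probe sets therefore put the same 2 FLT3-ITD arrays on top, followed by wild type replicate 2 and then wild type replicate 1. Wild type replicate 1 read 4.54 with 1427127_x_at, against 4.49 in FLT3-ITD replicate 037, and 3.98 with 1427126_at, against 3.95 in FLT3-ITD replicate 1. For these 2 dimmer probe sets its place was thus near a tie, well below the array medians. Their differences were 1.13 ± 0.69 and 0.93 ± 0.57 (log2, SE; limma adjusted p over probe sets = 0.740 and 0.743). Without FLT3-ITD replicate 2 they were 0.66 and 0.55, without FLT3-ITD replicate 3 0.70 and 0.56, and with the 3′ to 5′ difference of the Gapdh control as a covariate 1.89 and 1.58.

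Hspa1a and Hspa1b parted on 1 array. FLT3-ITD replicate 1 had the third highest Hspa1a value, 7.64, and the lowest value of Hspa1b probe set 1452318_a_at, 3.34; its other Hspa1b probe sets read 3.95 and 4.39. That array also correlated least with the others over all probe sets with 1 gene (0.947 to 0.959). The suffix _x_at marks probe sets whose probes may match other transcripts, and with coding sequences this alike any of these 4 probe sets may hold RNA of either gene.

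Hspa8, whose product folds new proteins and uncoats clathrin vesicles in unstressed cells, was nearly flat. Probe set 1455789_x_at read 13.15, 13.09, 13.13 and 13.17 in wild type replicates 1, 2, 3 and 037 and 13.12, 13.07, 13.13 and 13.06 in FLT3-ITD. The genotypes overlapped, with means of 13.14 ± 0.03 and 13.09 ± 0.04 (log2, SD, n = 4 each). The difference was −0.04 with a 95% interval from −0.27 to 0.19 (limma adjusted p = 0.940). Probe sets 1420622_a_at and 1420623_x_at differed by 0.05 and 0.03.

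The fourth Hspa8 probe set, 1431182_at, ranged more widely. It read 9.98, 9.73, 9.19 and 9.22 in wild type replicates 1, 2, 3 and 037 and 9.41, 9.81, 10.06 and 8.21 in FLT3-ITD, a difference of −0.16 ± 0.39 (SE; limma adjusted p over probe sets = 0.949). Its lowest array, FLT3-ITD replicate 037, also had the largest excess of the 3′ over the 5′ Gapdh control, 2.99 log2 units against 1.82 to 2.29 on the other arrays, a sign of RNA quality. With that Gapdh difference as a covariate the Hspa8 probe set read 0.32 and Hspa1a 2.47, neither called.

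**Figure D3:**
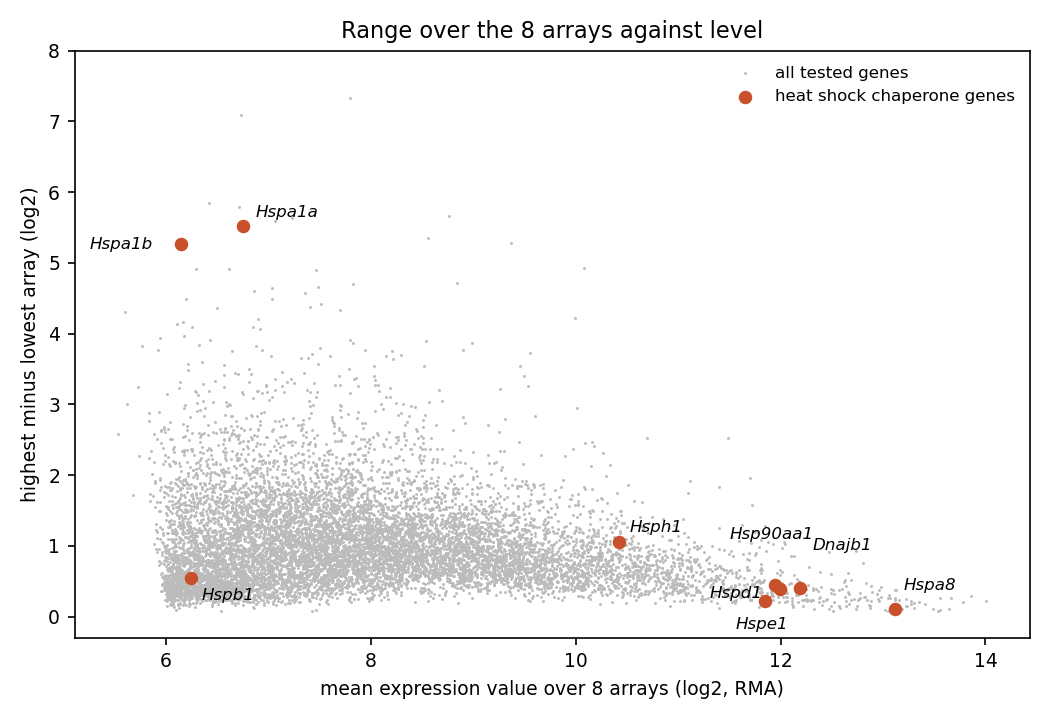
Highest minus lowest of the 8 arrays (log2, y axis) against mean expression value (log2, RMA, x axis) for 10762 tested genes (grey) and the 9 measured heat shock chaperone genes (orange). Hspa1a and Hspa1b stand 4th and 5th in range among 3060 genes with a mean of 6 to 7, while Hspa8 stands 25th of 32 with a mean of 13 to 14, where ranges are narrow.

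Ranked by range over the 8 arrays, Hspa1a was 8th and Hspa1b 11th of 10762 genes, whereas Hspa8 was 10748th. The median gene had a range of 0.88. Hspa1a spanned 5.53 log2 units and Hspa8 0.11. The low end of the Hspa1a and Hspa1b spans lay well below the array medians, where signal over background is not known, so these spans and their ranks rest on dim values. From means of 7 to 8, where the median range was 1.05, up to means of 13 to 14, ranges narrowed as the signal rose. Each gene was therefore also placed among genes whose mean lies in the same log2 unit. The median range was 0.81 for means of 6 to 7 and 0.19 for means of 13 to 14. Hspa1a and Hspa1b were then 4th and 5th widest of 3060, and Hspa8 was 25th of 32. Of the other members, Hsph1 was 113th of 726, Dnajb1 35th of 121 and Hsp90aa1 187th of 312. Hspd1 was 221st and Hspe1 304th of 312, and Hspb1 was 2086th of 3060. The SD within wild type was 1.89 for Hspa1a, 2.09 for Hspa1b and 0.03 for Hspa8, and within FLT3-ITD 1.25, 2.43 and 0.04. The inducible pair thus varied between arrays of the same genotype.

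Dnajb1 encodes a J-domain protein that delivers substrates to HSP70 and stimulates its ATPase. Probe set 1416755_at read 12.28, 12.30, 12.23 and 12.38 in wild type replicates 1, 2, 3 and 037 and 12.15, 12.02, 12.19 and 11.97 in FLT3-ITD. Every FLT3-ITD array lay below every wild type array. The means were 12.30 ± 0.06 and 12.08 ± 0.10 (log2, SD, n = 4 each), a difference of −0.22 with a 95% interval from −0.47 to 0.04 (limma adjusted p = 0.604). Among probe sets, too, it was the 1 of 22 without overlap, against 5.24% of all probe sets.

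The other Dnajb1 probe set, 1416756_at, did overlap. It read 8.09, 8.90, 7.77 and 7.52 in wild type replicates 1, 2, 3 and 037 and 7.21, 8.17, 8.17 and 7.49 in FLT3-ITD, a difference of −0.31 ± 0.33 (SE; limma adjusted p over probe sets = 0.858). Without wild type replicate 2 it was −0.033, and without wild type replicate 037 −0.49. Its 4 highest arrays were wild type replicates 1 and 2 and FLT3-ITD replicates 2 and 3. These were also the 4 highest arrays of all 3 Hspa1b probe sets and of Hspa8 probe set 1431182_at. With the 2 dimmer Hspa1b probe sets, wild type replicate 1 held its place only by a near tie, well below the array medians. The shared order was noticed after the values were seen and is given as a description. For the brighter Dnajb1 probe set the highest array was instead wild type replicate 037, where Hspa1a was lowest.

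**Figure D4:**
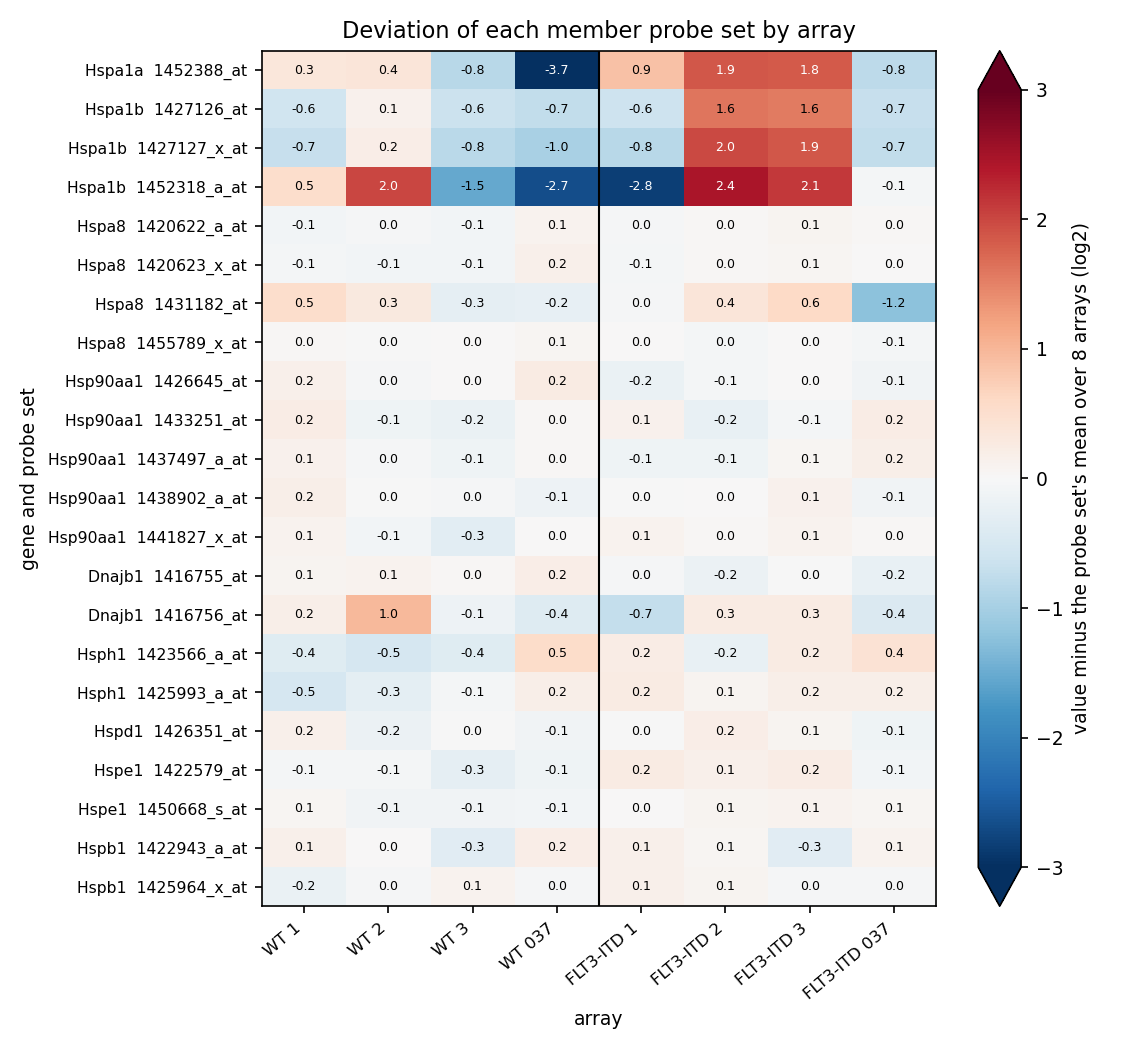
Deviation of each of the 22 member probe sets (rows) from its own mean on each of the 8 arrays (columns), in log2 units, red for higher and blue for lower (full colour at 3), with the vertical line between genotypes. Large deviations are concentrated in the Hspa1a and Hspa1b rows, from −3.66 for Hspa1a in wild type replicate 037 to 2.45 for Hspa1b in FLT3-ITD replicate 2.

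Hsph1 encodes HSP110, which exchanges nucleotide on HSP70 so that it can release its substrate. Probe set 1423566_a_at read 10.07, 9.92 and 10.07 in wild type replicates 1, 2 and 3 and 10.97 in replicate 037, against 10.66, 10.20, 10.66 and 10.87 in FLT3-ITD. Apart from replicate 037, each wild type array lay below each FLT3-ITD array. The means were 10.26 ± 0.48 and 10.60 ± 0.28 (log2, SD, n = 4 each), a difference of 0.34 with a 95% interval from −0.23 to 0.91 (limma adjusted p = 0.735). Without wild type replicate 037 the difference was 0.58 (limma adjusted p = 0.355).

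The second Hsph1 probe set, 1425993_a_at, gave the smallest p of the member probe sets. It read 9.79, 9.98, 10.22 and 10.46 in wild type replicates 1, 2, 3 and 037 and 10.52, 10.35, 10.46 and 10.46 in FLT3-ITD. The FLT3-ITD arrays were close together and only wild type replicate 037 reached into their range. The difference was 0.34 with a 95% interval from −0.01 to 0.69 (limma adjusted p over probe sets = 0.631). Both Hsph1 probe sets thus gave a difference of 0.34. For both, wild type replicate 037 was the highest wild type array, whereas for Hspa1a it was the lowest.

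Hsp90aa1 encodes the inducible cytosolic HSP90, which matures kinases and steroid receptors. Probe set 1426645_at read 12.11, 11.90, 11.96 and 12.20 in wild type replicates 1, 2, 3 and 037 and 11.75, 11.88, 11.95 and 11.85 in FLT3-ITD. Wild type replicates 1, 3 and 037 lay above every FLT3-ITD array, replicate 3 only just, and replicate 2 lay within their range. The means were 12.04 ± 0.13 and 11.86 ± 0.08 (log2, SD, n = 4 each), a difference of −0.18 with a 95% interval from −0.45 to 0.09 (limma adjusted p = 0.702). The other 4 probe sets of Hsp90aa1 differed by −0.01 to 0.14, so its probe sets did not share a sign. The mean over its probe sets gave −0.0025. Probe set 1441827_x_at, at 0.14, was above the array median on 0 arrays, and 1433251_at, at 0.03, had a mean of 6.46, near the medians. The bright probe sets 1437497_a_at and 1438902_a_at differed by −0.01 and 0.0034.

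Hspd1 and Hspe1 encode the HSP60 barrel and its HSP10 lid, which fold imported proteins in the mitochondrial matrix. Hspd1 read 12.14, 11.81, 11.98 and 11.89 in wild type replicates 1, 2, 3 and 037 and 11.99, 12.20, 12.07 and 11.87 in FLT3-ITD. The genotypes overlapped, and the difference was 0.08 with a 95% interval from −0.22 to 0.37 (limma adjusted p = 0.898). Leaving out replicate 2 took it to 0.028 (the wild type one) or 0.021 (the FLT3-ITD one), leaving out wild type replicate 1 to 0.14, leaving out FLT3-ITD replicate 037 to 0.13, and the Gapdh covariate to 0.16. Hspe1 probe set 1450668_s_at read 11.92, 11.74, 11.73 and 11.77 in wild type and 11.85, 11.93, 11.95 and 11.91 in FLT3-ITD, in the same order of replicates. Wild type replicate 1 was the only array of its genotype within the FLT3-ITD range, and the difference was 0.12 with a 95% interval from −0.13 to 0.36 (limma adjusted p = 0.797).

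The other Hspe1 probe set, 1422579_at, read 9.98, 9.97, 9.76 and 9.91 in wild type and 10.28, 10.17, 10.25 and 9.95 in FLT3-ITD. FLT3-ITD replicate 037 alone fell within the wild type range. The difference was 0.26 with a 95% interval from −0.01 to 0.52 (limma adjusted p over probe sets = 0.632). The mitochondrial pair thus had positive differences in all 3 probe sets, none past the test.

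Hspb1 encodes HSP27, a small heat shock protein that holds unfolded proteins without ATP. Its signal lay near the array medians of 5.98 to 6.05. Probe set 1422943_a_at read 6.39, 6.25, 5.89 and 6.45 in wild type replicates 1, 2, 3 and 037 and 6.39, 6.30, 5.91 and 6.36 in FLT3-ITD, with replicate 3 the lowest array in each genotype. The difference was −0.0027 with a 95% interval from −0.39 to 0.38 (limma adjusted p = 0.998), and its sign turned under other scalings. Probe set 1425964_x_at differed by 0.09 ± 0.11 (SE) and was above the array median on 3 arrays.

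Other chaperone genes were read from lists made by function. Of 114 genes in the chaperone lists together, 97 were tested. None was called by limma, against 0.604% of all genes tested, and 8 had an unadjusted p under 0.05, against 9.58%. Positive differences numbered 63 and negative ones 34, against 53.7% positive over all genes, with a median of 0.06 against 0.02 over all genes tested. Values ranged from −0.74 to 0.88.

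Among 12 tested heat-inducible chaperones and co-chaperones besides the members, 9 were positive and 3 negative, with a median of 0.06. Dnajb4, an HSP70 co-chaperone, read 9.70, 9.73, 9.93 and 9.84 in wild type replicates 1, 2, 3 and 037 and 9.03, 9.37, 9.25 and 8.58 in FLT3-ITD. Its genotypes did not overlap, and the difference of −0.74 ± 0.18 (SE) had the smallest p of the chaperone lists (limma adjusted p = 0.160). It also had the smallest p of 22 tested J-domain proteins, of which 14 were positive and 8 negative.

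Hspa2, an HSP70 best known from the testis, had the smallest p of 9 tested HSP70 and HSP110 relatives, 5 of them positive and 4 negative. It read 7.19 to 7.42 in wild type and 7.48 to 8.14 in FLT3-ITD without overlap, a difference of 0.57 ± 0.16 (SE; limma adjusted p = 0.247). Hspa5 and Hspa9, the HSP70 proteins of the endoplasmic reticulum and the mitochondrion, differed by 0.02 and −0.04. Of 11 tested HSP90 relatives and co-chaperones 9 were positive and 2 negative, with a median of 0.15; Cacybp, a binding partner of the E3 ligase SIAH1, read 0.35 ± 0.13 (SE; limma adjusted p = 0.460).

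The remaining chaperone lists held no called gene either. In the list of endoplasmic reticulum chaperones and the unfolded protein response, 14 were positive and 6 negative, and Sdf2l1, an endoplasmic reticulum co-chaperone, read 0.88 ± 0.26 (SE; limma adjusted p = 0.270). In TRiC and prefoldin 9 were positive and 5 negative, with Pfdn4, a prefoldin subunit, at 0.47 ± 0.18 (SE; limma adjusted p = 0.445). Mitochondrial chaperones and proteases were split 6 to 6, with the protease subunit gene Clpp at 0.45 ± 0.22 (SE; limma adjusted p = 0.574). Nucleotide exchange factors and HSP70 co-chaperones had 10 positive and 3 negative, with the HSP110 relative Hspa4 at 0.22 ± 0.15 (SE; limma adjusted p = 0.724). Small heat shock proteins had 3 positive and 2 negative, with HSP20, from Hspb6, at −0.45 ± 0.46 (SE; limma adjusted p = 0.820). Of the heat shock factors and their regulators only Hsbp1 and Hsf2bp were tested, at 0.19 ± 0.23 and −0.02 ± 0.13 (SE; limma adjusted p = 0.852 and 0.980).

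**Figure D5:**
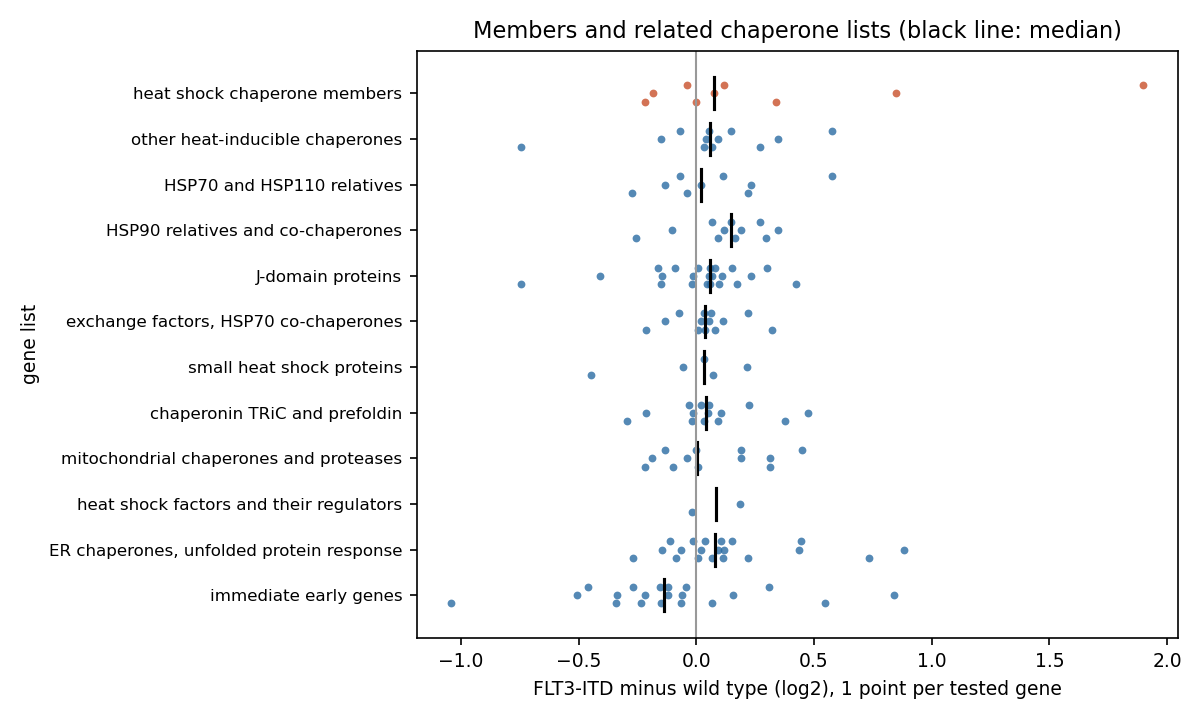
Difference between FLT3-ITD and wild type (log2, x axis) for each tested gene of the heat shock chaperone members (orange) and of 11 related lists (blue), 1 point per gene and a black line at each list's median. Apart from Hspa1a at 1.90 and Nr4a1 at −1.04, the points lie between −0.74 and 0.88, and no gene shown was called.

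Immediate early genes, which share rapid induction by stress with the inducible chaperones, had 5 positive and 15 negative differences among 20 tested, with a median of −0.14 and no call. Nr4a1, a nuclear receptor gene, read −1.04 ± 0.25 (SE; limma adjusted p = 0.150). The mean of the list by array was 9.14, 9.63, 9.70 and 9.28 in wild type replicates 1, 2, 3 and 037 and 9.37, 9.35, 9.66 and 8.93 in FLT3-ITD. FLT3-ITD replicate 037 was the lowest on this list and the lowest FLT3-ITD array for Hspa1a. FLT3-ITD replicate 3 was next to highest on both. FLT3-ITD replicate 2, the highest array for Hspa1a, lay in the middle of this list. Wild type replicate 3, the highest on this list, was next to lowest for Hspa1a.

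Hspa1a had the widest range of the members, and the genes whose centred profiles over the 8 arrays lay nearest to it, by root mean square difference, were Pvt1 (1.08), S100a6 (1.10), Ifitm1 (1.13), Btla (1.15) and Ociad2 (1.17). None lay close: a flat profile would have given 1.68. In each of these genes wild type replicate 037 was the lowest wild type array. FLT3-ITD replicate 037 was the lowest of its genotype in each except S100a6. Pvt1, a long non-coding RNA gene beside Myc, read 3.73 in wild type replicate 037, against 6.67 to 7.31 in the other wild type arrays. Its difference between genotypes was 0.01 ± 0.79 (SE, limma adjusted p = 0.998). Ifitm1 was called, at 1.58 ± 0.24 (SE, limma adjusted p = 0.025). S100a6, Btla and Ociad2 read 1.49, 1.45 and 0.30 (limma adjusted p = 0.137, 0.147 and 0.887). Nearness to Hspa1a picked these genes, so their differences are no separate evidence. Hspa1b had a root mean square difference of 1.54 from Hspa1a and was 817th in this order, behind many genes outside the family. It was still the nearest of the other members, with Hspd1 next at 1935th. The measure weighs the size of the swings as well as their shape, and Hspa1b itself lay 2.01 from a flat profile.

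Several values of the whole series bear on these readings. Of the gate genes, Kit, Cd48, Flt3 and Cd34 were above the array median on all 8 arrays and Slamf1, which encodes CD150, on none; Ly6a was not analysed here. The gate genes were not alike between genotypes: Cd48 was higher in FLT3-ITD by 1.06 ± 0.13 and Flt3 lower, at −1.17 ± 0.20 (log2, SE; limma adjusted p = 0.0074 and 0.041). Mean levels of dendritic cell markers were 6.29 to 6.37 in wild type and 7.73 to 8.93 in FLT3-ITD (8 of 11 above the median on at least 4 arrays), of monocyte and macrophage markers 5.86 to 6.31 and 6.60 to 7.08 (5 of 10), and of erythroid markers 6.68 to 7.02 and 5.79 to 6.29 (6 of 10). Mature neutrophil markers averaged 6.42 to 7.82 in wild type and 5.30 to 7.37 in FLT3-ITD (6 of 10). B cell, T and NK cell, megakaryocyte, mast cell and basophil, eosinophil, and endothelial and stromal markers averaged 4.03 to 6.33 on every array. Some single markers were brighter. Those above the median on at least 4 arrays were 4 of 9 for B cells and 3 of 8 for T and NK cells. They were 2 of 7 for megakaryocytes, 3 of 7 for mast cells and basophils, 0 of 4 for eosinophils and 4 of 9 for endothelial and stromal cells. The part of all these cell types in the chaperone values was not tested.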

How the data were processed

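The authors deposited 1 log2 value per probe set and array, made with RMA (background correction, quantile normalization and probe summary), per the submitters' processing notes, which give no version. Per the labels' protocols, RNA was extracted with Trizol and amplified with NuGEN's WT-Ovation Pico system. Quantile normalization narrows differences at the top of the scale, and RMA understates large folds at low signal. The number of arrays limits the precision; signal over background on the scanner was not used here.

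Of 45101 probe sets, 34945 had exactly 1 gene in the platform annotation, with current symbols for 34741 through Entrez IDs (GRCm38.p6, names only). For each of 18193 genes the probe set with the highest mean stood for the gene, and the 10762 genes where it exceeded the array median on 4 or more arrays were tested with limma 3.58.1 in R 4.3.3. A second fit took all 34945 probe sets, without a filter; of the 22 member probe sets, 18 met that condition. Differences are FLT3-ITD minus wild type. Standard errors and intervals are limma's, from the gene fit unless "over probe sets" is named or the probe set does not represent its gene.

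On simulated data made from the 10762 genes of this comparison, the procedure recovered 2% of genes changed by 0.5 (log2), 56% at 1, 92% at 2 and 98% at 3, with 2 false calls. These shares are over all genes and are not rates for single members. Hspa1a and Hspa1b had standard errors of 0.93 and 1.32 and some of the widest ranges, so the 92% at 2 does not carry over to them. Members and lists were chosen with earlier results of these data known. Genes named besides the members were the one with the smallest p of each chaperone list and of the immediate early list, the gate genes and the 5 nearest profiles; Hspa5, Hspa9 and Hsf2bp were chosen after their values were seen. Whether replicate numbers pair the samples is not known. Deviations of samples with the same label correlated weakly across genes, at 0.03 to 0.11. For wild type replicates 1, 3 and 037 the FLT3-ITD sample of the same label correlated best, but for replicate 2 it was replicate 3. Correlations this small cannot exclude a pairing. Alternatives covered the replicate numbers, replicate 037, normalization, filter, probe set choice, variance model, array weights, RNA quality and each sample. Promoter windows were searched with Python 3.11.15 and figures drawn with matplotlib 3.10.9.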

Additional observations from a re-analysis of the deposited data

Results flagged for a closer look

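In 44 groups of 4 values (22 member probe sets in each genotype), 2 had an array far from the other 3; chance flags about 1 in 20 groups. Both were wild type replicate 037. It was the highest of its genotype for Hsph1 probe set 1423566_a_at, at 10.97 against 9.92 to 10.07, and for Hspa8 probe set 1420623_x_at, at 12.84 against 12.60 to 12.64.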

How the results depend on the processing

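Over 20 alternatives (19 planned, and the removal of both replicates 037, chosen after seeing the data), limma called no member and no gene of the chaperone lists. The smallest member adjusted p in limma was 0.227 over genes and 0.332 over probe sets, both for Hspa1a with the replicate label as a block, where its difference stayed 1.90 (SE 0.40). Over all genes tested that replicate block left 19 higher and 3 lower, against 46 and 19. Whether the labels pair the samples is not known, so the blocked fit is given only here. Counts moved to 33 and 3 with the Gapdh covariate, 18 and 7 with genes above the median on all 8 arrays, 26 and 5 without both replicates 037, and 28 to 45 higher and 2 to 14 lower with each sample left out.

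Of the 9 member genes 7, and of the 22 probe sets 17, kept their sign in every alternative that read them. Hspb1, Hspa8 and 5 probe sets did not. Hspb1, by gene and by probe set 1422943_a_at, read 0.010 with replicates 1 and 037 averaged, 0.015 with arrays centred on their median, 0.0040 with quantile normalization repeated and 0.025 without both replicates 037, and −0.12 to 0.11 with each sample left out; as a mean over probe sets the gene read 0.042. Hspa8 read 0.053 without the _x_at and _s_at probe sets. Its probe set 1431182_at read 0.054 averaged, 0.32 with the Gapdh covariate, 0.13 without both replicates 037 and −0.38 to 0.23 with each sample left out. For Hsp90aa1, probe set 1437497_a_at read 0.0075 averaged, 0.0077 centred, 0.0076 with array weights and −0.070 to 0.031 with each sample left out. Probe set 1438902_a_at read −0.0057 with quantile normalization repeated, −0.0042 without both replicates 037 and −0.044 to 0.066 with each sample left out. Probe set 1433251_at read −0.084 with the Gapdh covariate, −0.016 without both replicates 037 and −0.032 to 0.11 with each sample left out. The cause was not tested. With 4 arrays a genotype, changes of 0.5 were seldom recovered in simulated data, but that share is over all genes. The rate for Hspa8, Hspd1 or Hspe1 alone is not given. In the gene fit, limma's intervals ran from −0.27 to 0.19 for Hspa8, −0.22 to 0.37 for Hspd1 and −0.13 to 0.36 for Hspe1. Differences inside these intervals could be missed, whereas 0.5 lay outside each of them. Intervals of other probe sets reached 0.73 for Hspa8 (1431182_at) and 0.52 for Hspe1 (1422579_at).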
